A study of Homo sapiens with 60 samples.

Results

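Untreated spheroids of the human colorectal carcinoma line HCT116 were compared between the media labelled Medium 2 and Medium 1, over all genes. The comparison took the 5 untreated Medium 2 libraries and the 5 untreated Medium 1 libraries, 10 of the 60 in the series. Spheroids, which are aggregates of cells grown without attachment, formed in agarose microwells. Their medium was DMEM of high glucose content, to which serum, antibiotics and non-essential amino acids were added. The other 50 libraries came from spheroids given butyrate, hemin, kynurenine, kynurenic acid, or hemin with kynurenine, 5 libraries in each medium. Butyrate, kynurenine and kynurenic acid were given at 1 µM and hemin at 0.1 µM, between day 1 and day 8 after seeding; the doses within the hemin and kynurenine combination are not stated separately. The series' design text says that some spheroids were sampled at once and others after 3 h in a nutrient-deprived medium, but the labels do not say which numbered medium is which, and a treatment field reads untreated and nutrient-rich in every one of the 60, exposed spheroids included. All spheroids came from a single cell line, and whether the 5 libraries of a group came from separate cultures is stated only as biological replicate numbers.

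Each library held 3' end counts, made with a kit that primes on poly(A) tails and reads the end of each transcript. The labels give the molecule as cytoplasmic RNA. Totals were 1617485 to 1934972 counts in Medium 2 and 1600876 to 2158851 in Medium 1. Fewer genes had a count in Medium 2, 13732 ± 177 against 14193 ± 187 in Medium 1 (SD, n = 5 each), and the gap remained after thinning every library to equal depth, at 13378 ± 63.9 against 13826 ± 68.8. Both gaps had p = 0.00794 by exact two-sided permutation test, the smallest p that 5 against 5 allows. Of the 17 epithelial colon cancer markers, 10 were abundant enough to test and none passed, although 2 were higher in the fit of untreated libraries alone. The summed level of the 17 was 2739 to 3103 CPM, which are counts scaled by normalised library size, in Medium 2 and 2459 to 2767 in Medium 1, ranges that overlapped slightly, while the markers with no count in the 10 libraries included CDX1 and VIL1. Fibroblast markers summed to 4.61 to 15 CPM in Medium 2 and 9.22 to 19.9 in Medium 1, with 9 of 11 at 0. No immune, endothelial or erythroid marker was abundant enough to test. Medium 2 occupied wells G4 to C5 of the plate and Medium 1 wells A1 to E1, and the exposed libraries likewise took wells D5 to D8 for Medium 2 and F1 to F4 for Medium 1, so medium and well position cannot be told apart in either set. The Medium 2 library of well H4 stood apart from the other 4 on the second principal component, at 41.9 against -16.6 to -1.20. The Medium 1 library of well A1 differed more from its group than the others did, with a chi-square per degree of freedom of 5.52 to 9.74 against 2.42 to 3.46 among the other 4, and had 0.745% cytosolic ribosomal RNA against 2.93% to 4.37%. Mitochondrial ribosomal RNA was 1.75% of counts in Medium 2 and 1.62% in Medium 1 (p = 0.0238, exact two-sided permutation test), and its part in the results was not tested. The main counts were repeated without each of these 2 libraries.

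When cells lack nutrients or are stressed, the known transcriptional programmes mostly raise genes, and many of the genes they raise are short and have few introns. A messenger RNA can become scarcer when its promoter is less used, when RNA polymerase does not reach the end of a long gene, when its introns are not removed, or when the finished RNA decays. Genes with many exons need many splicing events for each transcript. The measurements here are steady levels at the 3' end, which do not separate these steps, and in a spheroid they also do not separate fewer cells that express a gene from less RNA in each.

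More genes were lower than higher in Medium 2. Of 11298 genes tested, 417 were lower, which is 3.69%, and 304 were higher, which is 2.69%, together 6.38% in either direction. A gene was called at an adjusted p of 0.05, from the quasi-likelihood test of edgeR, with p-values adjusted by Benjamini and Hochberg's method over all genes. The called lower genes had a median log2 fold change, Medium 2 over Medium 1, of -0.90, against 0.64 for the called higher genes. The called lower genes had lower levels, and a change must be larger to pass at a lower level. The sizes are thus not compared at like level. Over all tested genes the median was 0.00. At least a 2-fold change was reached by 174 lower and 67 higher genes. At least a 4-fold change was reached by 44 and 10. In 313 of the 417 lower genes and 244 of the 304 higher genes the libraries of the media did not overlap, where 4.46% and 3.99% of all tested genes did not overlap in those directions. Without the Medium 2 library of well H4, 311 genes were lower and 253 higher, and 271 and 222 of these did not overlap. Among all genes, called or not, 640 and 636 then did not overlap in those directions, because fewer libraries overlap less easily. Without the Medium 1 library of well A1, 334 were lower and 258 higher. The lower genes had a median level of 15.9 CPM in Medium 2 and 30.5 CPM in Medium 1. The median over all tested genes, with both media averaged, was 29.6 CPM. Together the lower genes held 1.52% of the counts in Medium 2 and 2.43% in Medium 1. The higher genes were more abundant, with medians of 91.3 CPM in Medium 2 and 55.6 CPM in Medium 1, and held 9.29% of the counts in Medium 2 and 6.68% in Medium 1.

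**Figure D1:**
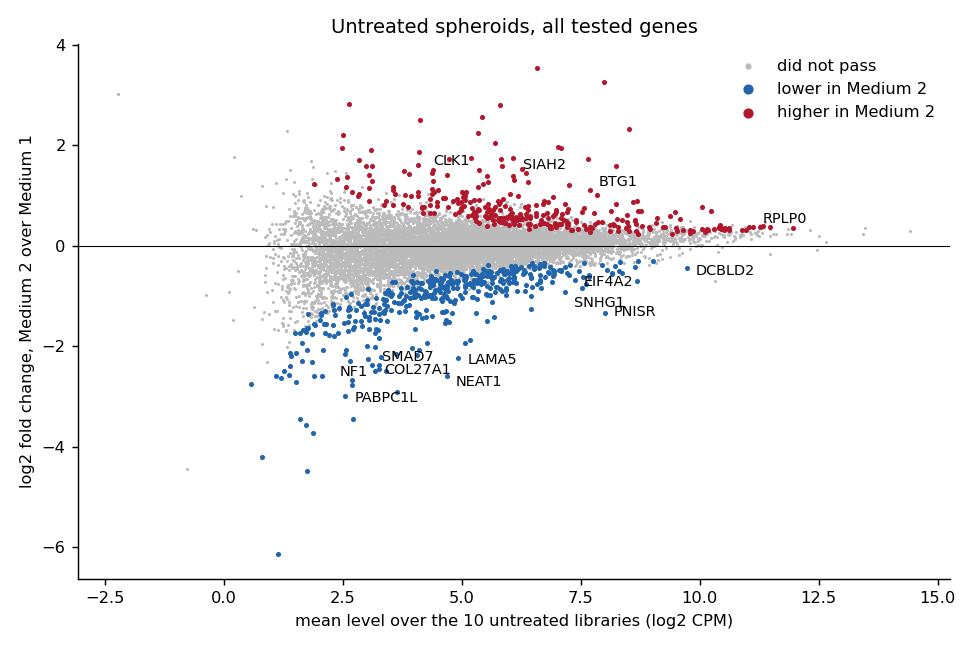
Mean level over the 10 untreated libraries (log2 CPM, x axis) against log2 fold change, Medium 2 over Medium 1 (y axis), for the 11298 tested genes, with the 417 lower genes in blue and the 304 higher genes in red. Lower genes extend further from 0 and lie mostly left of the higher genes.

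The known stress programmes covered few of the tested genes and few of the lower genes. The 12 stress lists, which include the integrated stress response, the unfolded protein response, hypoxia, p53 targets, immediate early genes and interferon response, held 257 of the tested genes, or 2.27%. They held 6 of the 417 lower genes, or 1.44%, and 79 of the 304 higher genes, or 26%. In all, 357 lower and 181 higher genes were in none of the 46 fixed lists. The lists, cell type markers aside, held 1122 of the 11298 tested genes, so most tested genes were in none. The calls were sensitive to single libraries: without the Medium 2 library of well B5, 276 genes were lower, and 161 of the lower and 157 of the higher genes kept their call in every one of 17 alternative fits. Here and below, a call counts as kept in a fit that did not test the gene.

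The lower genes had many exons. In the GENCODE v29 annotation, the principal transcript of the lower genes had a median of 16 exons, against 9 for all tested genes and 5 for the higher genes, with annotation found for 11000 of the 11298. The share of genes lower in Medium 2 climbed with exon number. It was 0.707% for the 283 genes with 1 exon, 1.57% for 2 to 4 exons, 2.00% for 5 to 9, 4.08% for 10 to 19 and 9.43% for the 1654 genes with 20 or more. The share that was higher ran the other way, from 5.30% with 1 exon and 5.49% with 2 to 4 exons down to 0.544% with 20 or more. Of the genes with 20 or more exons, 156 were lower and 9 were higher. The shift was not limited to the called genes, because the median log2 fold change of all genes in the bin was 0.17 with 1 exon, 0.08 with 2 to 4 exons, 0.05 with 5 to 9, -0.03 with 10 to 19 and -0.19 with 20 or more.

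Exon number, level and length are related to one another, so the shares were also read within quartiles of each. In the quartile of genes with the lowest level, 10.7% of those with 20 or more exons were lower, against 1.89% of those with 2 to 4 exons. In the quartile with the highest level these shares were 5.91% and 1.52%. Within quartiles of gene span, measured from the first to the last annotated base, 13.9%, 9.91%, 7.62% and 10.0% of the genes with 20 or more exons were lower, from the shortest to the longest spans, while genes with 2 to 4 exons stayed between 0.704% and 1.67%. The first of these shares was 5 of only 36 genes, and it was 2 of 36 without the Medium 2 library of well A5. Within quartiles of mature transcript length, the gap widened with length in the fit of all libraries. In the longest quartile, 11.9% of 986 genes with 20 or more exons were lower, and 1.47% of 273 with 2 to 4 exons. In the next these shares were 6.33% and 2.89%, and in the one after it 4.17% and 1.64%, while the shortest quartile held 3 genes with 20 or more exons, none of them lower. The shares with 20 or more exons, without the Medium 2 library of well H4, were 6.28% and 3.34% in the quartiles of lowest and highest level, 13.9%, 6.13%, 4.93% and 7.19% from short to long spans, and 4.17%, 4.03% and 8.32% in the upper 3 quartiles of transcript length. Span alone gave a shallower gradient, and Spearman's rank correlation with the log2 fold change across 11000 genes was -0.28 for exon number, -0.17 for span and 0.24 for level. Genes are not independent replicates, so these correlations carry no test. Leaving out the families of near-identical gene copies described later left 9.16% of genes with 20 or more exons lower. Among the genes in no fixed list the share was 9.36%. Over the 17 alternative fits it ranged from 6.11% to 14.6%, against 1.09% to 2.16% for genes with 2 to 4 exons.

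The exposed spheroids, which share no library with the untreated comparison but were fitted with the same estimate of spread, gave a gradient of the same direction, with more genes called. Averaged over the 5 exposures, the medium effect was tested in 50 libraries, and 21.8% of all tested genes were lower and 21.7% higher. With 20 or more exons, 47.6% were lower and 6.35% were higher. With 2 to 4 exons, 11.3% were lower and 30.5% were higher. The median log2 fold change was -0.22 for genes with 20 or more exons and 0.08 for genes with 2 to 4.

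**Figure D2:**
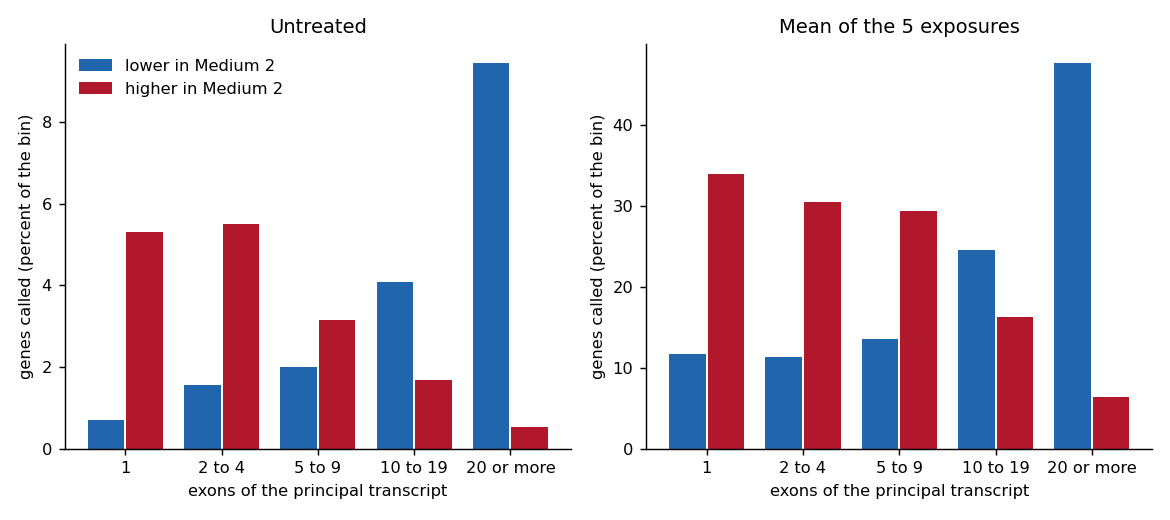
Percent of genes lower (blue) and higher (red) in Medium 2 by the exon number of the principal transcript, in untreated spheroids (left) and for the mean medium effect of the 5 exposures (right). The blue bars climb to 9.43% and 47.6% at 20 or more exons, while the red bars drop to 0.544% and 6.35%; the y axes differ in scale.

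Single libraries showed the exon gradient as well. For each library, the median deviation of genes with 20 or more exons from their untreated mean was set against that of genes with 2 to 4 exons, on the log2 scale. The difference was -0.17, -0.09, -0.13, -0.23 and -0.07 in the untreated Medium 2 libraries of wells G4, H4, A5, B5 and C5, and 0.10, 0.14, 0.24, 0.10 and 0.16 in the Medium 1 libraries of wells A1 to E1. The untreated media did not overlap, and the exposed libraries of kynurenine, kynurenic acid and hemin with kynurenine did not either. With butyrate the medians were -0.08 in Medium 2 and 0.22 in Medium 1, but 1 Medium 1 library reached -0.19. With hemin the medians were -0.06 in Medium 2 and 0.10 in Medium 1, and 1 Medium 1 library reached -0.06.

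**Figure D3:**
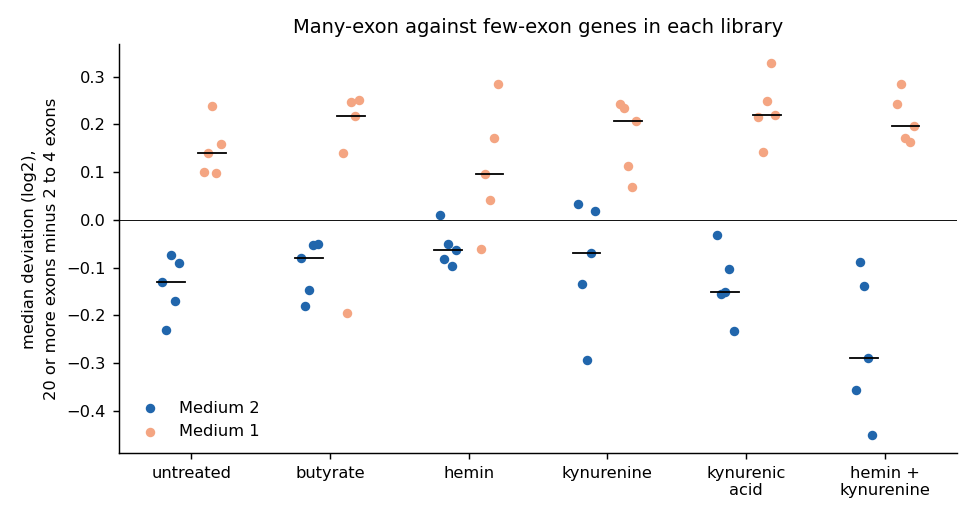
Median log2 deviation of genes with 20 or more exons minus that of genes with 2 to 4 exons, in each of the 60 libraries, by exposure; blue points are Medium 2, orange points Medium 1, and black lines group medians. Untreated Medium 2 libraries lie between -0.23 and -0.07, and untreated Medium 1 libraries between 0.10 and 0.24.

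LAMA5 had the lowest p of the lower genes with 20 or more exons. It encodes the laminin alpha 5 chain of epithelial basement membranes, and lies on chromosome 20 from 62309065 to 62367312 (RefSeq, GRCh38.p14), with 80 exons in the principal transcript. Its level was 16.6, 5.40, 11, 11.2 and 8.66 CPM in the Medium 2 libraries, against 53.1, 40.7, 57.5, 53.9 and 47.2 CPM in the Medium 1 libraries. Every Medium 2 library was far below every Medium 1 library. The log2 fold change was -2.24 ± 0.24 (SE), with an edgeR adjusted p of 1.37e-10. COL27A1, a fibrillar collagen gene with 61 exons, had 1.07 to 5.57 CPM in Medium 2 and 5.85 to 20.5 in Medium 1, a log2 fold change of -2.49 (edgeR adjusted p = 3.27e-06). COL4A5, a basement membrane collagen gene, was lower by less, with 8.66 to 12.6 CPM in Medium 2 and 12.1 to 27.8 in Medium 1, and its libraries overlapped (log2 -0.97, edgeR adjusted p = 0.00502). These were the only 3 of 29 tested laminin, collagen and basement membrane genes to fall, or 10.3% against 3.69% of all tested genes. None rose, and the list's median log2 fold change was -0.12, against 0.00 for all tested genes.

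Among giant scaffold genes, whose proteins span long distances between membranes or cytoskeletal filaments, 7 of 48 tested fell and none rose, with a median log2 fold change of -0.17. The share lower was 14.6%, against 3.69% of all tested genes. VPS13A, a lipid transfer protein, had 10.7, 15.1, 10.4, 11.2 and 21 CPM in Medium 2 and 32.2, 41.2, 42.8, 35.1 and 45.1 CPM in Medium 1. The media did not overlap (log2 -1.52 ± 0.25, edgeR adjusted p = 1.61e-05). MACF1 and DST, which link microtubules and actin, had log2 fold changes of -0.83 and -0.76. Their calls were weak: MACF1 had an edgeR adjusted p of 0.0135 that became 0.0656 without the Medium 2 library of well B5, and DST had 0.0402 and lost its call in 9 alternative fits. The list's count of 7 dropped to 2 without that library, to 4 without the Medium 2 library of well H4 or C5 or the Medium 1 library of well B1, C1 or E1, and was 9 in the fit of untreated libraries alone.

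Centrosome and cilium genes were grouped after their values had been seen, from gene names. Of 79 tested, 16 fell, or 20.3% against 3.69% of all tested genes, and none rose, with a median log2 fold change of -0.21. CEP290, a protein of the ciliary gate with 54 exons, had 7.5, 11.3, 17, 15.2 and 16.1 CPM in Medium 2, against 42.4, 32.1, 41, 44.2 and 26.2 CPM in Medium 1. No Medium 2 library reached the Medium 1 range (log2 -1.47 ± 0.31, edgeR adjusted p = 0.00092). AHI1, which acts at the base of the cilium, averaged 22.2 CPM in Medium 2 and 56.3 in Medium 1 (log2 -1.33). CCDC14, a centriolar satellite protein, averaged 27.9 CPM in Medium 2 and 75.3 in Medium 1 (log2 -1.42). CENPJ, which sets centriole length, had a log2 fold change of -1.13, CNTRL, a centriole protein, -1.19, and IFT80, an intraflagellar transport subunit, -0.99. These 6 genes kept their calls in all 17 alternative fits. CEP152, a centriole duplication factor, had -0.74, and its edgeR adjusted p of 0.00714 became 0.0506 without the Medium 2 library of well B5. After thinning to equal depth, 9 of the 79 were lower.

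Of 36 tested mitosis genes, 5 fell, or 13.9% against 3.69% of all tested genes, and none rose, with a median log2 fold change of -0.19. The count ranged from 1, or 2.78%, without the Medium 2 library of well H4 to 8 when only the 10 untreated libraries were fitted. CENPE, a kinetochore motor with 49 exons, was the 1 among them that kept its call in every fit, with 31.3 to 45.1 CPM in Medium 2 and 65.8 to 86.2 CPM in Medium 1 (log2 -0.87, edgeR adjusted p = 0.000223). MKI67, the proliferation antigen Ki-67, had 142 to 294 CPM in Medium 2 and 263 to 330 in Medium 1, and its call at an edgeR adjusted p of 0.0476 was lost in 11 fits.

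DNA repair genes and the related kinases had 7 lower and 2 higher members among 44 tested, with a median of -0.28. These are 15.9% and 4.55%, against 3.69% and 2.69% of all tested genes. ATM, the kinase that answers DNA double-strand breaks, has 63 exons. It had 9.11, 9.72, 10.4, 9.91 and 7.42 CPM in Medium 2, against 18.0, 16.7, 19, 32.1 and 32.3 CPM in Medium 1. The Medium 2 values were tight and all below the lowest Medium 1 library (log2 -1.33 ± 0.31, edgeR adjusted p = 0.0036). TP53BP1, which binds chromatin at breaks, averaged 43.6 CPM in Medium 2 and 78.9 in Medium 1 (log2 -0.86). BRCA1, a homologous recombination factor, averaged 60.2 CPM in Medium 2 and 103 in Medium 1 (log2 -0.78), and FANCL, the ubiquitin ligase of the Fanconi pathway, had a log2 fold change of -1.32. The higher members, MSH6 of mismatch repair (log2 0.29, edgeR adjusted p = 0.0402) and ERCC6 of transcription-coupled repair (log2 1.00, edgeR adjusted p = 0.0409), each lost the call in 10 alternative fits. The count of lower members was 4 without the Medium 2 library of well G4 or the Medium 1 library of well D1, and 12 in the fit of untreated libraries alone.

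Of 56 tested histone methylation and acetylation enzymes, 4 fell and 1 rose. These are 7.14% and 1.79%, against 3.69% and 2.69% of all tested genes. The count of falls was 2 after thinning or without the Medium 2 library of well G4 or B5 or the Medium 1 library of well E1. KMT2B, a histone H3 lysine methyltransferase with 37 exons, averaged 5.79 CPM in Medium 2 and 14.9 in Medium 1 (log2 -1.34, edgeR adjusted p = 0.00153). KAT2A, a histone acetyltransferase, averaged 15.8 CPM in Medium 2 and 29.2 in Medium 1 (log2 -0.88). SUV420H1, a histone H4 methyltransferase, was the member that rose (log2 0.55, edgeR adjusted p = 0.00536), although its libraries overlapped.

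The 9 genes with 20 or more exons that were higher went against the gradient. Chosen after its value was seen, PAPOLG, a poly(A) polymerase with 22 exons, had 31.9 to 35 CPM in Medium 2 and 12.7 to 24.4 CPM in Medium 1 (log2 0.95, edgeR adjusted p = 0.00067). USP37, a deubiquitinase, had 54.1 to 116 CPM in Medium 2 and 26.2 to 59.9 in Medium 1 (log2 0.93, edgeR adjusted p = 0.00572). MCM10, a replication initiation factor, averaged 170 CPM in Medium 2 and 121 in Medium 1 (log2 0.49), with no overlap.

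**Figure D4:**
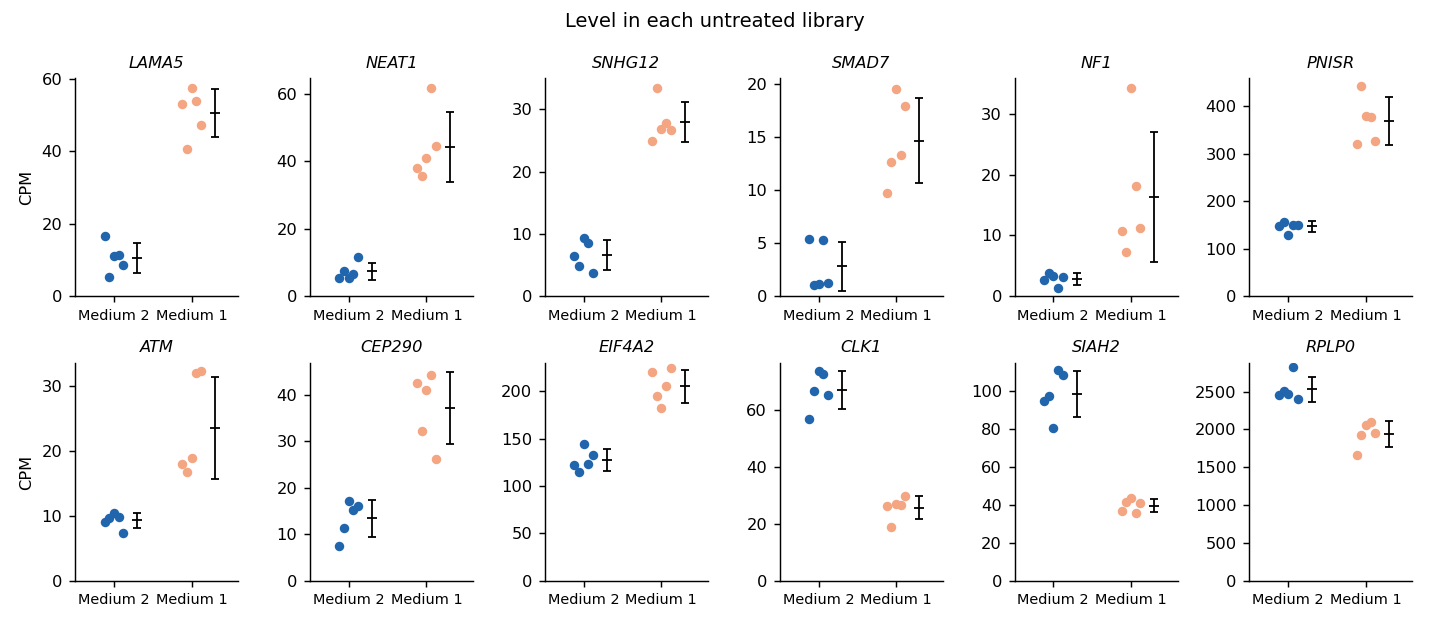
Level (CPM) of 12 genes in each untreated library, with the mean and SD beside the points; Medium 2 in blue on the left, Medium 1 in orange on the right, each y axis starting at 0. The libraries of the media do not overlap in any of the 12 panels; 9 genes are lower and CLK1, SIAH2 and RPLP0 are higher in Medium 2.

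Noncoding genes were among the falls. Of 195 tested genes of the long noncoding type, 18 were lower, or 9.23%, and none was higher. Of 149 pseudogenes, 14 were lower, or 9.40%, and 1 was higher. Among protein-coding genes the shares were 3.54% lower and 2.81% higher. Without the Medium 2 library of well H4, 15 long noncoding genes and 11 pseudogenes were lower, or 7.69% and 7.38%, against 2.61% of protein-coding genes. Of the 16 tested members of the nuclear long noncoding RNA list, 6 fell, or 37.5% against 3.69% of all tested genes. None rose, and the list's median log2 fold change was -0.49.

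NEAT1, the gene whose RNA scaffolds nuclear bodies called paraspeckles, lies on chromosome 11 from 65422798 to 65445540. It had 5.36, 7.56, 5.50, 6.60 and 11.8 CPM in Medium 2, against 38, 35.7, 41, 61.7 and 44.6 CPM in Medium 1. Every Medium 2 library was far below the lowest Medium 1 library. The log2 fold change was -2.58 ± 0.31 (edgeR adjusted p = 5.43e-09). Counts per gene, primed on poly(A) tails, do not show which form of the NEAT1 RNA fell, and paraspeckles were not measured. The neighbouring nuclear RNA MALAT1, which gathers at splicing speckles, was far more abundant and did not pass, with 709 to 1192 CPM in Medium 2 and 1152 to 2001 in Medium 1 (log2 -0.70, edgeR adjusted p = 0.0573). None of 18 tested paraspeckle protein genes passed in either direction, and their median was 0.09. LINC00342 had 0 to 2.70 CPM in Medium 2 and 7.80 to 15.7 in Medium 1 (log2 -2.67, edgeR adjusted p = 3.69e-05). MIR17HG, the host of a microRNA cluster linked to growth, averaged lower as well (log2 -1.40, edgeR adjusted p = 0.00334).

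Host genes of small nucleolar RNAs carry those RNAs in their introns, and their spliced transcripts are mostly noncoding. They were grouped after their values had been seen. Of 17 tested, 4 fell, or 23.5% against 3.69% of all tested genes, and none rose. SNHG12 had 6.43, 4.86, 9.35, 8.58 and 3.71 CPM in Medium 2, against 24.9, 33.5, 26.9, 27.8 and 26.7 CPM in Medium 1. The media were widely separated (log2 -2.08 ± 0.25, edgeR adjusted p = 5.71e-09). SNHG1 had 92.3 to 106 CPM in Medium 2 and 175 to 223 in Medium 1 (log2 -0.93, edgeR adjusted p = 9.17e-05), and SNHG3 had 24.3 to 40.9 CPM in Medium 2 and 58.7 to 83.1 in Medium 1 (log2 -1.11). GAS5, the best known of the group, had 45.6 to 61.6 CPM in Medium 2 and 66.3 to 108 in Medium 1 (log2 -0.61, edgeR adjusted p = 0.0181). The GAS5 call was lost without the Medium 2 library of well B5, without the Medium 1 library of well D1 and with a term for plate row, with an adjusted p of up to 0.0948.

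Cytosolic ribosomal protein genes moved in the opposite direction. All 79 tested had a log2 fold change above 0, with a median of 0.28. Among them 20 rose, or 25.3% against 2.69% of all tested genes, and none fell. Their summed mean level was 114772 CPM in Medium 2 and 93850 CPM in Medium 1. RPLP0, a stalk protein of the large ribosomal subunit, had 2449, 2509, 2470, 2818 and 2400 CPM in Medium 2, against 1666, 1926, 2058, 2101 and 1957 CPM in Medium 1. The groups did not overlap, although the change was small (log2 0.38 ± 0.09, edgeR adjusted p = 0.00434). RPLP1, another stalk protein, had a log2 fold change of 0.39 (edgeR adjusted p = 0.0052), and RPL39, of the large subunit, 0.35 (edgeR adjusted p = 0.00502). The number called rested on single libraries: it was 10 without the Medium 2 library of well B5 or the Medium 1 library of well A1, 12 without the Medium 2 library of well A5, 13 without the Medium 1 library of well C1 or E1, 13 with no filter, and 46 in the fit of untreated libraries alone. The direction did not rest on them, because all 79 fold changes were above 0 in each of the 17 alternative fits, with medians of 0.26 to 0.33.

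Ribosomal protein genes and several small nucleolar RNA host genes are known to begin transcription at a C followed by a run of pyrimidines, which links them to nutrient-sensitive control of translation. The start regions of the called ribosomal protein genes with the lowest p are printed beside SNHG12, the 1 called host gene with such a run in this window, because they carry the same start feature and moved in opposite directions. Each sequence is RefSeq, GRCh38.p14, sense strand; the capitals mark the run, a C followed by at least 6 pyrimidines, searched from 10 bases before to 11 bases after the annotated start on the sense strand.
RPLP0: ggcgcgaggCCCTTCTCTCgccaggcgtcc
RPL39: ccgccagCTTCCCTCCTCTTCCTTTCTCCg
RPLP1: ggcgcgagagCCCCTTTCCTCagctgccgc
SNHG12: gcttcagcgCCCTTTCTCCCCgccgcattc
The run was found in 50 of 63 ribosomal protein genes with a promoter sequence, or 79.4%, in 1 of 14 host genes, and in 13.4% of 8996 tested genes. It was found in 36 of 329 lower genes with a sequence, or 10.9%, and in 40 of 250 higher genes, or 16%. Without the Medium 2 library of well H4 it was in 27 of 236 and 31 of 201, and without the Medium 1 library of well A1 in 30 of 263 and 25 of 211. Annotated starts can differ from the start used in these cells, so a missing run says only that it is not in this window.

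Of 45 tested translation factor genes, 2 were lower, or 4.44%, near the 3.69% of all tested genes, and none was higher. Of the 45, 34 had a log2 fold change above 0. In the fit of untreated libraries alone 6 were higher and 2 lower, with DESeq2 2 were higher and 2 lower, and in the mean of the exposures 16 were higher and 7 lower. EIF4A2, an RNA helicase of translation initiation whose gene hosts small nucleolar RNAs, had 122, 114, 145, 123 and 133 CPM in Medium 2, against 220, 195, 182, 205 and 224 CPM in Medium 1. The media were clearly apart (log2 -0.69 ± 0.15, edgeR adjusted p = 0.0017). EIF4G3, a scaffold of the same step, had a log2 fold change of -0.73, and its edgeR adjusted p of 0.013 became 0.079 without the Medium 2 library of well B5. The median of the list was 0.11.

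Genes whose own splicing is regulated, together with the CLK kinases that phosphorylate splicing factors, split in direction. Of 35 tested, 11 fell and 2 rose, or 31.4% and 5.71%, against 3.69% and 2.69% of all tested genes, with a median of -0.22. PNISR, an SR-related protein of nuclear speckles, was the most abundant fall of at least 2-fold, with 148, 157, 128, 151 and 150 CPM in Medium 2, against 320, 443, 380, 378 and 326 CPM in Medium 1. The Medium 2 libraries were all far below the lowest Medium 1 library (log2 -1.33 ± 0.16, edgeR adjusted p = 5.71e-09). NKTR, a cyclophilin with an SR-like domain, had 38.9 to 67.5 CPM in Medium 2 and 75.6 to 149 in Medium 1 (log2 -1.25, edgeR adjusted p = 1.2e-06). LUC7L3, a component linked to the U1 particle, averaged 313 CPM in Medium 2 and 506 in Medium 1 (log2 -0.69). CCNL2, a cyclin of speckles, had a log2 fold change of -0.77, OGT, the enzyme that adds O-linked GlcNAc, -0.96, and DDX17, an RNA helicase, -0.38, and each of these kept its call in all 17 alternative fits.

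The kinases CLK1 and CLK4 themselves were higher. CLK1 had 56.8, 66.9, 73.7, 72.6 and 65.6 CPM in Medium 2, against 26.3, 19, 26.9, 26.6 and 29.7 CPM in Medium 1. Every Medium 2 library exceeded every Medium 1 library (log2 1.39 ± 0.19, edgeR adjusted p = 1.71e-07). CLK4 had 13.2 to 27.1 CPM in Medium 2 and 4.39 to 9.74 in Medium 1 (log2 1.49, edgeR adjusted p = 0.00108). Both genes are known to keep a pool of transcripts with retained introns in the nucleus, and 3' end counts do not tell such transcripts from spliced ones. Among the general SR and HNRNP splicing factors, none of 33 fell and 3 rose, with a median of 0.12. The share that rose was 9.09%, against 2.69% of all tested genes. HNRNPA1, the most abundant of these rises, had a log2 fold change of 0.32. Its edgeR adjusted p was 0.0129, or 0.0539 with no filter on low counts. The 3 rises became 0 with no filter, and 1 after thinning or without the Medium 1 library of well C1.

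Of 38 tested genes of TGF-beta and BMP signalling, 2 fell, or 5.26%, and 1 rose, or 2.63%, near the shares of 3.69% and 2.69% over all tested genes, with a median of 0.13. SMAD7, which blocks TGF-beta receptors, had 5.36, 1.08, 1.1, 5.28 and 1.24 CPM in Medium 2, against 9.75, 12.7, 19.6, 13.3 and 18.0 CPM in Medium 1. The groups did not overlap (log2 -2.36 ± 0.39, edgeR adjusted p = 1.58e-05). ID1, a target of BMP signalling that restrains differentiation, had 242 to 287 CPM in Medium 2 and 317 to 394 in Medium 1 (log2 -0.50, edgeR adjusted p = 0.00786). In the fit of untreated libraries alone 4 members fell.

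RNF43, which removes Wnt receptors from the cell surface, had 8.64 to 14.5 CPM in Medium 2 and 22.1 to 32.1 in Medium 1 (log2 -1.27, edgeR adjusted p = 2.5e-05). AXIN2, another Wnt feedback gene, had 3.85 to 9.18 CPM in Medium 2 and 9.26 to 18.5 in Medium 1 (log2 -1.05, edgeR adjusted p = 0.0301), and its call was lost in 7 alternative fits. No other of the 25 tested Wnt and stem cell genes passed, so the share lower was 8.0%, against 3.69% of all tested genes. LFNG, a glycosyltransferase that modifies Notch, was the 1 called gene of 16 in its list, or 6.25% (log2 -1.62, edgeR adjusted p = 0.00359). None of 27 Hippo and YAP targets passed, and their median was -0.22.

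NF1, the Ras GTPase activator neurofibromin, lies on chromosome 17 from 31094977 to 31377675 and has 57 exons. It had 2.68, 3.78, 3.30, 1.32 and 3.09 CPM in Medium 2, against 10.7, 7.24, 34.2, 18.2 and 11.3 CPM in Medium 1. The media did not overlap, but Medium 1 was widely spread (log2 -2.45 ± 0.40, edgeR adjusted p = 1.61e-05). In the mean of the 5 exposures its log2 fold change was -0.91. NF1 was the only called fall among 29 tested Ras regulators, or 3.45%, near the 3.69% of all tested genes. In that list 5 rose, or 17.2% against 2.69% of all tested genes. These included the ERK feedback genes SPRY1 (log2 1.95, edgeR adjusted p = 0.00884) and DUSP6, the ERK phosphatase (log2 0.84, edgeR adjusted p = 0.000145). Without the Medium 2 library of well C5, 2 members of that list fell.

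Other falls concerned genes in no fixed list, several chosen after their values were seen. PABPC1L, a poly(A) binding protein relative, had 0 to 2.20 CPM in Medium 2 and 6.67 to 14.5 in Medium 1 (log2 -3.0, edgeR adjusted p = 1.02e-05). PEAR1, a receptor of the EGF-repeat class, had 1.32 to 4.95 CPM in Medium 2 and 8.59 to 18.8 in Medium 1 (log2 -1.99). METTL3, the catalytic subunit of the RNA adenosine methyltransferase, averaged 4.36 CPM in Medium 2 and 12.3 in Medium 1 (log2 -1.48, edgeR adjusted p = 0.000195). DROSHA, the nuclease that starts microRNA processing, averaged 31.1 CPM in Medium 2 and 61.0 in Medium 1 (log2 -0.97), and SMCHD1, a chromatin silencer with 48 exons, averaged 75.3 CPM in Medium 2 and 124 in Medium 1 (log2 -0.72). MDN1, a ribosome assembly ATPase with 102 exons, had a log2 fold change of -0.75. HOXB5, a homeobox gene with only 2 exons, had -1.02, while the adjacent HOXB4 had -0.82 and lost its call without the Medium 2 library of well B5, and HOXB3 had -1.43 and lost its call in 5 fits.

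A pair of lower genes act in opposite directions in fatty acid metabolism; both were chosen after their values were seen, and no list of that pathway was tested. CPT1A, which admits fatty acids into mitochondria, had 75.3 to 110 CPM in Medium 2 and 129 to 160 in Medium 1 (log2 -0.60, edgeR adjusted p = 0.0017). ACACA, which makes malonyl-CoA for fatty acid synthesis, had 64.7 to 97.7 CPM in Medium 2 and 107 to 156 in Medium 1 (log2 -0.69, edgeR adjusted p = 0.00392). The media did not overlap in either gene.

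Falls in 4 other abundant transcripts were smaller than that of PNISR. DCBLD2, a membrane receptor, had 680 to 760 CPM in Medium 2 and 941 to 1036 in Medium 1 (log2 -0.44, edgeR adjusted p = 0.00064). VCAN, the matrix proteoglycan versican, had 201 to 260 CPM in Medium 2 and 329 to 362 in Medium 1 (log2 -0.55), and SLTM, a nuclear RNA binding protein, 244 to 296 CPM in Medium 2 and 332 to 470 in Medium 1 (log2 -0.54). SMC4, a condensin subunit, had 316 to 377 CPM in Medium 2 and 439 to 483 in Medium 1 (log2 -0.43), and its edgeR adjusted p of 0.0163 became 0.0531 without the Medium 2 library of well C5. None of the 4 showed overlap between the media.

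Genes in families of near-identical copies, spread by segmental duplication, were grouped by name after their values were seen. Of 53 tested, 25 fell, or 47.2% against 3.69% of all tested genes, and none rose, with a median of -1.49. NBPF14 had 7.26 to 18.9 CPM in Medium 2 and 31.7 to 64.8 in Medium 1 (log2 -1.93, edgeR adjusted p = 5.43e-09). GOLGA8B, a relative of Golgi coiled-coil proteins, had a log2 fold change of -2.17, and AGAP4 had -3.44. The estimated counts divide reads among copies that share sequence, so the level of any single copy is uncertain. For the same reason the 25 calls are not all separate, and their share is not strictly comparable with the 3.69% of all tested genes.

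The stress lists do not hold every gene of a stress programme. Of the 304 higher genes, 225 were outside them. SIAH2, a ubiquitin ligase of the hypoxia pathway that was in no fixed list, had the lowest p among these, with 94.9, 97.2, 80.3, 111 and 108 CPM in Medium 2, against 36.6, 41.6, 43.4, 35.7 and 41 CPM in Medium 1. Its libraries were clearly apart (log2 1.31 ± 0.12, edgeR adjusted p = 5.29e-13). BTG1, an adaptor of the CCR4-NOT deadenylase that shortens poly(A) tails, had 259 to 303 CPM in Medium 2 and 106 to 161 in Medium 1 (log2 1.12, edgeR adjusted p = 1.92e-08). TOB2, of the same family, had 118 to 147 CPM in Medium 2 and 58.5 to 83.8 in Medium 1 (log2 0.84), and BTG2, which is also on the p53 target list, had a log2 fold change of 1.14. With them, 4 of 23 tested deadenylase and AU-rich element genes rose, or 17.4% against 2.69% of all tested genes, and none fell.

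The next higher genes encode transcription regulators outside the stress lists, of which no list was tested. CREBRF, a regulator of CREB3, averaged 37.4 CPM in Medium 2 and 14 in Medium 1 (log2 1.41). NR4A2, an orphan nuclear receptor, averaged 60.6 CPM in Medium 2 and 21.2 in Medium 1 (log2 1.5), and FOSL2, an AP-1 subunit, 66.6 CPM in Medium 2 and 27.5 in Medium 1 (log2 1.27). MXD1, which opposes MYC, had a log2 fold change of 1.28, PNRC1, a nuclear receptor coactivator, 1.28, CSRNP1, a nuclear protein induced by AXIN1, 1.24, NFIL3, a repressor of clock output, 0.71, THAP5, a zinc finger protein, 0.88, and MAFG, a partner of NRF2, 0.74. All of these passed at an edgeR adjusted p of 0.000267 or lower and kept their calls in all 17 alternative fits. MEF2C, a MADS-box factor, averaged 161 CPM in Medium 2 and 81.9 in Medium 1 (log2 0.98).

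Other higher genes encode secreted or surface products, again with no list tested. IFNL1, a type III interferon, had 23.8 to 36.2 CPM in Medium 2 and 9.23 to 15.7 in Medium 1 (log2 1.52, edgeR adjusted p = 1.22e-05). SEPP1, selenoprotein P, averaged 13.1 CPM in Medium 2 and 4.34 in Medium 1 (log2 1.59, edgeR adjusted p = 0.000236). PLAUR, the urokinase receptor, averaged 504 CPM in Medium 2 and 274 in Medium 1 (log2 0.88), SDC4, a heparan sulfate proteoglycan, 238 CPM in Medium 2 and 141 in Medium 1 (log2 0.75), and B2M, the light chain of class I antigen-presenting molecules, had 1609 to 1782 CPM in Medium 2 and 1216 to 1379 in Medium 1 (log2 0.35, edgeR adjusted p = 0.00588). MCM2, a subunit of the replication helicase (log2 0.67, edgeR adjusted p = 0.000567), and DTL, which targets replication factors for degradation (log2 0.64, edgeR adjusted p = 5.09e-05), were also higher; both were chosen after their values were seen, and no list of replication genes was tested. MIS12, a kinetochore protein with 3 exons, had a log2 fold change of 1.03, and H2AFX, a histone variant with 1 exon, 0.61.

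The exposed spheroids measured the same contrast in libraries that the untreated comparison did not use, but with the same order of media along the plate. Of the 417 genes lower in untreated Medium 2, 390 were lower in the mean of the 5 exposures, or 93.5%, where 21.8% of all tested genes were, and none was higher. Without the Medium 2 library of well H4, 300 of 311 were, and without the Medium 1 library of well A1, 317 of 334. In the single exposure of hemin with kynurenine, 1 of the 417 was called higher and 2 of the 304 higher genes were called lower. By single exposure, 237 were lower with butyrate, 236 with hemin, 224 with kynurenine, 213 with kynurenic acid and 258 with hemin and kynurenine, against backgrounds of 5.37%, 11.4%, 4.28%, 4.26% and 8.32%. In all 5 exposures 97 were called lower, and in none of them 49. The same was not counted over all tested genes, so these counts have no background. Of the 304 higher genes, 290 were higher in the mean of the exposures, or 95.4%, against 21.7% of all tested genes, and 244 of 253 were without the Medium 2 library of well H4. By single exposure, 175 were higher with butyrate, 208 with hemin, 155 with kynurenine, 171 with kynurenic acid and 174 with hemin and kynurenine, against backgrounds of 4.51%, 12.6%, 3.73%, 4.3% and 8.02%. The median log2 fold change of the lower genes was -0.90 untreated and -0.65 in the exposed, and that of the higher genes 0.64 and 0.46. The untreated values chose these genes, so a smaller mean in other libraries is no measure of a weaker effect. NEAT1 had -2.51 in the exposed, LAMA5 -1.88, VPS13A -1.73, PNISR -1.11 and ATM -1.0. MALAT1, which did not pass untreated, had -0.83 in the exposed and passed there with an edgeR adjusted p of 1.61e-09. ERCC6 had 0.01 in the exposed, where it did not pass.

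**Figure D5:**
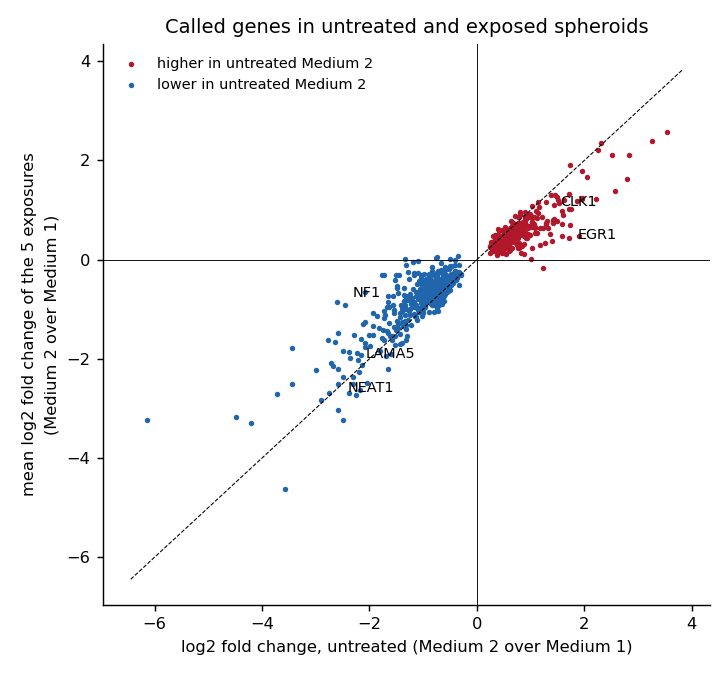
Log2 fold change, Medium 2 over Medium 1, in untreated spheroids (x axis) against the mean of the 5 exposures (y axis), for the 304 genes higher (red) and the 417 lower (blue) in untreated Medium 2; the dashed line marks equal values. Nearly all points lie in the quadrants where both values share a sign, and EGR1 lies well below the line.

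A direct test of the medium effect, untreated minus the mean of the exposed, passed for 1 gene of 11298, which is 0.00885%. That gene was EGR1, an immediate early transcription factor, with 299, 274, 400, 318 and 254 CPM in untreated Medium 2, against 83.4, 121, 81.3, 89.6 and 88.2 CPM in untreated Medium 1. Its log2 fold change was 1.73 untreated and 0.70 exposed, a difference of 1.03 (edgeR adjusted p = 0.00305). At an unadjusted p under 0.05, 450 genes passed, or 3.98%, where 5% would pass if no gene differed. For every other gene, a difference between untreated and exposed spheroids was not detected at this depth and number of libraries.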

How the data were processed

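The authors deposited 1 table of estimated counts per gene (expected counts, not whole numbers) for 60 libraries. The submitters' processing notes name the GRCh38 genome, Salmon 1.5.2, STAR, cutadapt 3.4, UMI-tools 1.1.2 and FastQC 0.11.9, with no settings. Per the labels' protocols, libraries came from 48 ng of RNA with 18 PCR cycles and molecular identifiers.

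Counts were rounded, and genes were kept by edgeR's filter (minimum count 10, total 15), leaving 11298 of 29744 genes with 99.6% of counts. edgeR 4.0.16 (R 4.3.3) fitted all 60 libraries with 12 groups and TMM scaling, giving 48 residual degrees of freedom. Contrasts were tested by quasi-likelihood with Benjamini-Hochberg adjustment. CPM values use TMM library sizes. DESeq2 1.42.0 was an alternative. On simulated counts for the untreated contrast (11229 genes), the fit recovered 46 of 50 genes at log2 1, 35 of 50 at -1, 50 of 50 at 2 and 50 of 50 at -2, with 10 false among 191 calls.

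Genes named were the strongest robust calls, called members of lists and, where stated, genes chosen after seeing values. Members and lists were chosen with earlier results of these data known. Gene symbols matched RefSeq for 10328 genes directly and 761 by older symbol; 209 had no match. Exon numbers came from GENCODE v29. The edgeR p-values set a difference between groups against the spread between libraries, estimated over all 60 and not over the 10 untreated alone. Counting limits cover counting error only. Some items are not reported here.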

Additional observations from a re-analysis of the deposited data

Results flagged for a closer look

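In the untreated groups of 5 libraries, 14 of 214 group values checked held a library far from the other 4 by Dixon's criterion, or 6.54%, where chance flags about 1 in 20. In Medium 2 the library of well B5 was low for DST (105 CPM) and HOXB4 (7.92 CPM) and high for RPLP0 (2818 CPM). The library of well H4 was high for FANCL (18.9 CPM), low for MSH6 (313 CPM) and apart on the second principal component (41.9). The library of well C5 was low for RPLP1 (2643 CPM) and SUV420H1 (50.7 CPM), and the library of well A5 was low for PNISR (128 CPM). In Medium 1 the outlying values were SNHG1 at 223 CPM in well E1, MKI67 at 263 CPM and MAFG at 147 CPM in well A1, IFNL1 at 15.7 CPM in well D1, and EGR1 at 121 CPM in well B1. The medium effect on EGR1 was larger by 1.03 (log2) in untreated than in exposed spheroids, by a test of that difference.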

How the results depend on the processing

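Against 417 lower and 304 higher genes, the fit gave 414 and 298 with RLE scaling, 319 and 234 with no filter, 456 and 351 with DESeq2, 397 and 276 with a term for plate row, 294 and 221 after thinning, and 398 and 311 without ribosomal and transfer RNA. An adjusted p of 0.01 gave 173 and 152, a 2-fold minimum 174 and 67, and the 10 untreated libraries alone 586 and 548. Leaving out 1 library gave 276 to 337 lower and 248 to 269 higher genes, and 38 to 56 lower and 103 to 118 higher members of the fixed lists. The lowest of these, 276 and 38, came without the Medium 2 library of well B5. The difference between untreated and exposed medium effects passed for 2 genes with no filter and for 1 with DESeq2. The cause of these shifts was not tested. No call of a named gene reversed. No paired analysis was possible because the table's columns carry plate wells and no replicate numbers. Depth limits calls of small changes: 35 of 50 simulated falls of log2 -1 were recovered, and 46 of 50 rises of log2 1.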
